A study of Mus musculus with 10 samples.

Results

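The genes examined were 10 regulators of the G1 phase of the cell cycle, taken from the joint count table as the rows whose symbol was Ccnd1, Ccnd2, Ccnd3, Ccne1, Ccne2, Cdkn1a, Cdkn1b, Cdkn2a, Cdkn2b or Cdkn2c. All 10 were found among 39017 genes, and all 10 passed the filter on low counts. RNA sequencing of 10 mouse lung tumours gave their levels, with 5 tumours in each of the groups KP and KPG1. Mice of the KP group develop lung adenocarcinoma from engineered alleles that Cre recombinase switches, and both groups carried these alleles. KPG1 mice were in addition labelled homozygous fl/fl for Slc2a1, which encodes Glut1, a glucose transporter of the plasma membrane. For the 5 controls, one label gives a heterozygous fl/wt genotype and another WT, and KP stands here for the control group of the labels. Cre was delivered into the lungs of both groups as Ad5SPC-Cre, an adenovirus in which the SPC promoter directs Cre to alveolar cells that make this surfactant protein. All mice were C57BL/6 males, and tumours were dissected 18 weeks and 6 days after initiation. Each library was made from what remained of a dissociated tumour once cells carrying CD45, a leukocyte surface protein, had been removed on a magnet, and nothing in the labels says whether tumours shared a mouse, so p-values measure the spread between these libraries.

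D-type cyclins bind Cdk4 and Cdk6, E-type cyclins bind Cdk2, and the active kinases phosphorylate the retinoblastoma protein, which frees E2F factors to transcribe the genes of DNA replication. CDK inhibitors oppose this step. The CIP/KIP proteins p21 (Cdkn1a) and p27 (Cdkn1b) act on cyclin-bound kinases, whereas the INK4 proteins p16 and p15 (from Cdkn2a and Cdkn2b) and p18 (Cdkn2c) bind Cdk4 and Cdk6 themselves, and loss of the Cdkn2a and Cdkn2b locus is frequent in human lung cancer.

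The libraries held 32427029 to 49534284 counts, and Slc2a1 was lower in every KPG1 library (40.8 to 66.8 CPM, counts scaled to library size) than in every KP library (71.7 to 127 CPM), with a limma adjusted p of 0.0675. Sftpc, which marks alveolar type 2 cells, ranged from 5370 to 19900 CPM in KP and from 17500 to 40200 CPM in KPG1. Of the leukocyte markers, Ptprc, the gene of CD45, lay between 5.21 and 11 CPM and Cd3e at or below 0.189 CPM. The library KP 5 stood apart, with a score of -2.44 over 30 genes of G2 and mitosis against -0.12 to 0.15 in the other KP libraries, where a score is the mean over the genes of the z-score across libraries. A count from a bulk tumour fraction cannot tell fewer cells of a type from less RNA per cell.

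Between the genotypes, none of the 10 genes passed an adjusted p of 0.05 in the limma fit across 16216 genes, of which 0.173% passed. Of all genes tested, 0.0617% passed as higher and 0.111% as lower in KPG1. Before adjustment, 2 of the 10 had a p under 0.05, against 11.6% of all genes tested. The gene lower in KPG1 was Cdkn1a, at a log2 fold change of -0.90 (SE 0.28), where 6.31% of all genes were lower by this rule. The gene higher in KPG1 was Cdkn2c, at 0.74 (SE 0.31), where 5.26% of all genes were higher. With edgeR and with DESeq2 the 2 genes under an unadjusted p of 0.05 were Cdkn1a and Ccne2, and Cdkn2c was not among them. In limma, Ccne2 had a log2 fold change of 0.86 (SE 0.40) and an unadjusted p of 0.055. DESeq2 called 1 of the 10, Cdkn1a, as lower, against 3.46% of the genes it tested in either direction and 2.67% as lower, and the quasi-likelihood test of edgeR called 0. For each of the 10 genes the values of the 2 genotypes overlapped. The genotypes did not overlap for only 2.81% of all genes tested, so overlap did not set the 10 genes apart.

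**Figure D1:**
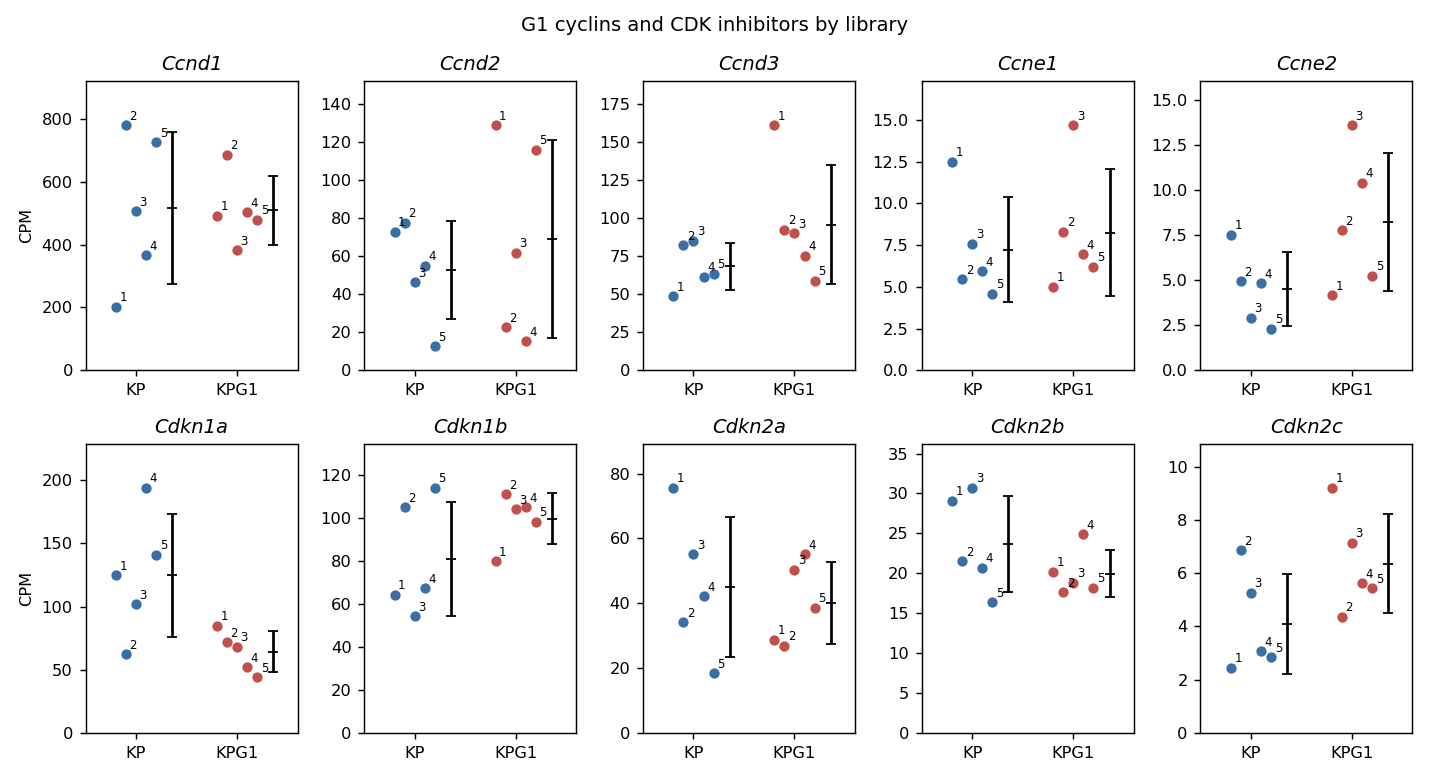
Expression of the 10 genes in CPM (vertical axes, each from 0) in 5 KP libraries (blue) and 5 KPG1 libraries (red), numbered by replicate, with the mean and SD of each group in black. Cdkn1a lay between 62.4 and 194 CPM in KP and between 44.0 and 84.9 CPM in KPG1, and Ccnd2 spanned 12.7 to 129 CPM over all libraries.

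Levels can be compared between genes only once divided by the length of their exons, and CPM per kilobase is used for this purpose. Ccnd1 was the most abundant of the 10 genes, at a mean of 109 CPM per kilobase over the 10 libraries. It was followed by Cdkn2a at 36.3, Cdkn1a at 26.6, Cdkn1b at 19.8 and Cdkn2b at 15.7 CPM per kilobase. Ccnd3 at 9.32, Ccnd2 at 6.48, Ccne1 at 2.90, Cdkn2c at 1.95 and Ccne2 at 1.82 CPM per kilobase came last. Between neighbours in this order, the log2 difference within a library exceeded its SD over libraries at only 2 steps. These were Ccnd1 over Cdkn2a, at 1.6 ± 1.1 (SD, n = 10 libraries), and Cdkn2b over Ccnd3, at 0.80 ± 0.61 (SD, n = 10 libraries). The second step turned on the exon lengths, 1.39 kb for Cdkn2b and 8.775 kb for Ccnd3. Before division by length Ccnd3 was the higher, at a mean of 68.1 against 23.7 CPM in KP and 95.5 against 19.9 CPM in KPG1. These lengths pool all annotated exons and can exceed those of the transcripts made. At the other steps the neighbours did not differ beyond their spread.

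Among the D-type cyclins and the 3 INK4 members a single gene held most of the transcripts. The classes here hold members only. Cdkn1c of the CIP/KIP family, at 13.1 CPM per kilobase, and Cdkn2d of the INK4 family, at 3.37, were left out of the shares and sums. Of the E-type cyclins, Ccne1 had the higher level per kilobase in 9 of 10 libraries and Ccne2 in KPG1 4. Of the D-type cyclin transcripts per kilobase, Ccnd1 gave 87.1% ± 6.83 in KP (SD, n = 5) against 85.3% ± 6.38 in KPG1 (SD, n = 5). Of the transcripts of the 3 INK4 genes, Cdkn2a gave 65.4% ± 7.39 in KP (SD, n = 5) against 66.2% ± 6.23 in KPG1 (SD, n = 5). For both genes the difference between the genotypes was smaller than the SD within a genotype. Counts of Cdkn2a pool the transcripts of p16Ink4a with those of p19Arf, which is not an INK4 protein. The Cdkn2a share and the INK4 sum are thus levels of genes and do not give the part of p16Ink4a. Of the pair Cdkn1a and Cdkn1b, Cdkn1a held 71.4%, 43.3%, 70.6%, 78.7% and 61.2% in KP 1 to KP 5 and 57.6%, 45.3%, 45.7%, 38.8% and 36.5% in KPG1 1 to KPG1 5. Cdkn1a was thus the larger of the pair in 4 of 5 KP libraries and Cdkn1b the larger in 4 of 5 KPG1 libraries, with KP 2 and KPG1 1 as the exceptions. The summed level of the pair was 52.9 ± 13.5 CPM per kilobase in KP (SD, n = 5) against 40.0 ± 4.16 in KPG1 (SD, n = 5). The D-type cyclins summed to 123 ± 51.8 CPM per kilobase in KP (SD, n = 5) against 126 ± 22.8 in KPG1 (SD, n = 5), the E-type cyclins to 4.00 ± 1.67 and 5.46 ± 2.45, and the INK4 genes to 57.1 ± 22.3 and 50.8 ± 12.2.

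**Figure D2:**
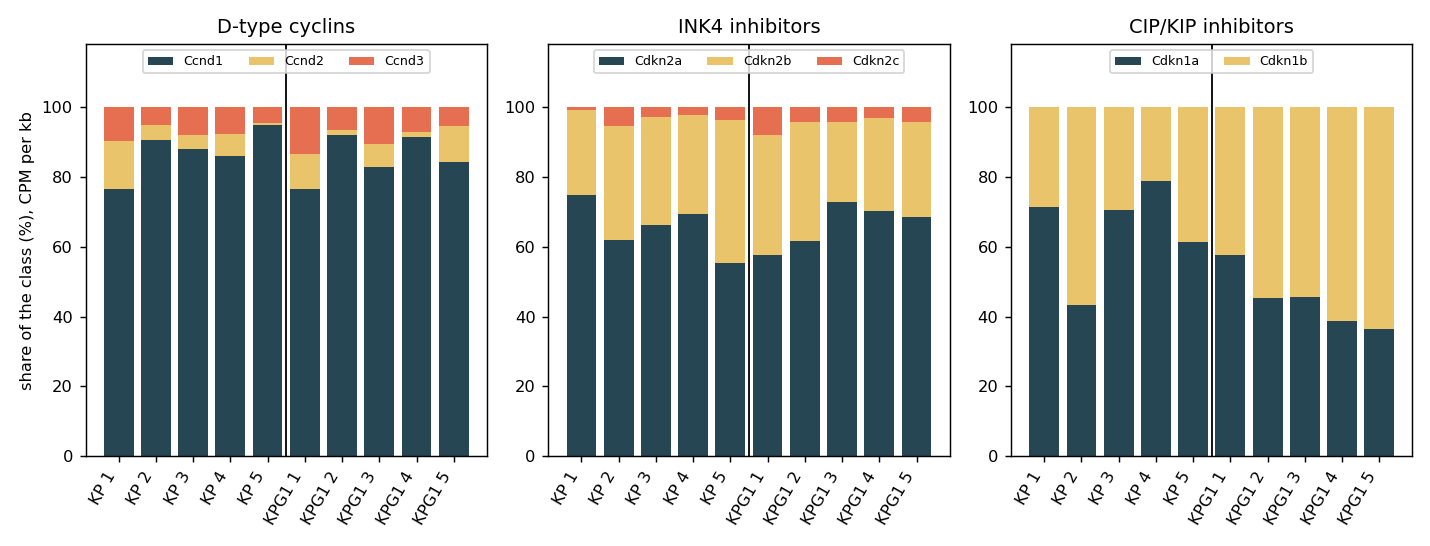
Share of each gene in the CPM per kilobase of its class (vertical axes, percent) in the 5 KP and 5 KPG1 libraries, separated by a line. Classes are the D-type cyclins, the INK4 members (Cdkn2a, Cdkn2b and Cdkn2c) and the CIP/KIP members (Cdkn1a and Cdkn1b), without Cdkn2d and Cdkn1c. Cdkn2a counts pool p16Ink4a and p19Arf transcripts. Ccnd1 took 76.4% to 94.7% of its class in every library, whereas the share of Cdkn1a ran from 36.5% to 78.7%.

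Ccnd1 (ENSMUSG00000070348, chromosome 7, 144929931 to 144939925, minus strand, mm10) encodes cyclin D1. Libraries KP 1 to KP 5 held 203, 781, 507, 366 and 727 CPM of it, and KPG1 1 to KPG1 5 held 493, 687, 382, 503 and 480 CPM. Every KPG1 value lay within the range of KP, and the KP libraries spanned 3.85-fold where the KPG1 libraries spanned 1.80-fold. KPG1 differed from KP by a log2 fold change of 0.11 (SE 0.33, 95% interval -0.62 to 0.84, limma adjusted p 0.928), and it turned to -0.02 with edgeR and to -0.03 with DESeq2. KP 1, the lowest library for Ccnd1, also had the lowest sum of 12 alveolar type 2 markers, 19500 CPM against 29000 to 64600 CPM in the other KP libraries and 49900 to 89900 CPM in KPG1. All 12 of these markers had a positive log2 fold change, and 4 were higher at an unadjusted limma p under 0.05, against 5.26% of all genes tested. The part of these markers in the values of Ccnd1 was not tested.

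Ccnd2 (ENSMUSG00000000184, chromosome 6, 127125162 to 127152193, minus strand), the gene of cyclin D2, varied most within a genotype among the 10 genes. It reached 72.9, 77.6, 46.2, 55.1 and 12.7 CPM in KP 1 to KP 5 and 129, 22.6, 61.9, 15.4 and 116 CPM in KPG1 1 to KPG1 5. The KPG1 libraries split widely, with 2 above every KP library and 2 below all KP libraries but KP 5. The within-genotype SD was 1.23 on the log2 scale, above that of 96.2% of all genes tested, whose median was 0.35. With an SE of 0.66, the log2 fold change was 0.19 (95% interval -1.26 to 1.64, limma adjusted p 0.937). It turned to -0.58 when each library was given a weight and was 1.6 once the sample number was a covariate. The libraries also differed in endothelial transcripts. The sum of 10 endothelial markers was 711, 1020, 1130, 654 and 341 CPM in KP 1 to KP 5 and 1610, 814, 760, 511 and 840 CPM in KPG1 1 to KPG1 5. The lowest library for both was KP 5 and the highest for both was KPG1 1, and the part of endothelial cells in the Ccnd2 values was not tested. None of the 10 endothelial markers passed an unadjusted p of 0.05 in limma between the genotypes, and all 10 had positive log2 fold changes.

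Ccnd3 (ENSMUSG00000034165, chromosome 17, 47505051 to 47599691, plus strand), the gene of cyclin D3, was expressed at 48.7 to 85.2 CPM in KP and 58.8 to 161 CPM in KPG1. The highest value was that of KPG1 1, and 3 KPG1 libraries lay above all KP libraries. For Ccnd3 a log2 fold change of 0.43 was fitted (SE 0.25, 95% interval -0.12 to 0.99, limma adjusted p 0.538), which was positive under all 19 alternatives. Gene models on the opposite strand overlap Ccnd1 (LTO1), Ccnd2 (9330179D12Rik and Gm43126), Ccnd3 (Bysl), Ccne2 (Ints8) and Cdkn1a (AC167363.2). The library kit keeps the strand, but the strand setting of the counting was not given in the sources used here, and reads of such partners could have been counted for these genes.

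The E-type cyclins were low. Ccne1 (ENSMUSG00000002068, chromosome 7, 38097984 to 38107534, minus strand), the gene of cyclin E1, had 12.5, 5.47, 7.58, 5.93 and 4.59 CPM in KP 1 to KP 5 and 5.00, 8.32, 14.7, 6.97 and 6.21 CPM in KPG1 1 to KPG1 5. A single library stood highest in each genotype, KP 1 and KPG1 3, and the other 8 libraries lay between 4.59 and 8.32 CPM. Ccne1 had a log2 fold change of 0.18 (SE 0.34, 95% interval -0.56 to 0.93, limma adjusted p 0.869). Ccne2 (ENSMUSG00000028212, chromosome 4, 11191351 to 11204779, plus strand), the gene of cyclin E2, had 7.53, 4.93, 2.91, 4.84 and 2.30 CPM in KP 1 to KP 5 and 4.17, 7.76, 13.6, 10.4 and 5.24 CPM in KPG1 1 to KPG1 5. For Ccne2, 3 KPG1 libraries lay above all KP libraries and 2 KP libraries lay below all KPG1 libraries. The log2 fold change of 0.86 (SE 0.40) had a 95% interval from -0.02 to 1.74 and a limma adjusted p of 0.44, and the mean log2 CPM differed with an exact permutation p of 0.0952 (two-sided). Its sign was positive under all 18 alternatives that gave a value, which ranged from 0.62 to 1.08. A library held at least 100 counts of Ccne2 and at least 174 of Ccne1.

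Cdkn1a (ENSMUSG00000023067, chromosome 17, 29090976 to 29100727, plus strand) encodes p21, an inhibitor of cyclin-bound CDKs that holds cells in G1 after damage. Its 2 annotated starts of transcription are shown by the 250 bases before each (RefSeq, GRCm38.p6, plus strand, 5′ to 3′), because it was the member with the smallest p, and capitals mark GC boxes (GGGCGG, either strand), the letters bound by Sp1 family factors.
Cdkn1a, chr17:29090729-29090978: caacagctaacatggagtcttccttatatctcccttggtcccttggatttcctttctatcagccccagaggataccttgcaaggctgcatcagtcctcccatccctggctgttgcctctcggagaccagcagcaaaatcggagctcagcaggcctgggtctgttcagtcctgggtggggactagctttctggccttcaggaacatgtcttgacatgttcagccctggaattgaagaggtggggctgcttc
Cdkn1a, chr17:29093519-29093768: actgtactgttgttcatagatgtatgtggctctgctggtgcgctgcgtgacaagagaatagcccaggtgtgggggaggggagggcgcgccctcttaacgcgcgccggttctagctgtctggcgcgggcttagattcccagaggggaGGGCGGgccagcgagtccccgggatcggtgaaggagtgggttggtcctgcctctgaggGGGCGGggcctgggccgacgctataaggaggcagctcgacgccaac
The window of the upstream start held 0 GC boxes and that of the downstream start held 2, where 32.7% of all 32851 such windows held at least 1. The deposited counts pool transcripts from both starts.

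Cdkn1a was expressed at 125, 62.4, 102, 194 and 141 CPM in KP 1 to KP 5. In KPG1 1 to KPG1 5 it was expressed at 84.9, 71.9, 68.2, 52.0 and 44.0 CPM. Of the KP libraries, 4 lay above every KPG1 library, and KP 2 lay inside the KPG1 range. The KP mean was 125 ± 48.5 CPM (SD, n = 5) and the KPG1 mean 64.2 ± 16.3 CPM (SD, n = 5). The fitted level in KPG1 was 0.54 times that in KP, with a 95% interval from 0.35 to 0.82. The unadjusted limma p was 0.00839, the limma adjusted p was 0.26, and the two-sided exact permutation p was 0.0317, where the smallest p that 5 against 5 libraries allow is 0.00794. DESeq2 gave an adjusted p of 0.0364, and the other 18 alternatives gave 0.0979 to 0.5. Under all 19 the log2 fold change was negative, from -1.13 without KP 2 to -0.72 without KP 4, and it was -0.85 (limma adjusted p 0.176) without KP 5, the library with the lowest mitotic transcripts. The sum of leukocyte markers was also lower in KPG1 (41.2 to 78.8 CPM) than in KP (62.6 to 108 CPM), with overlap of the sums. Of 11 tested leukocyte markers, 8 had a negative and 3 a positive log2 fold change. At an unadjusted limma p under 0.05, 3 were lower, against 6.31% of all genes tested. The genotypes did not overlap for 3, against 2.81% of all genes, and DESeq2 called 3, against 3.46% of the genes it tested. The part of these markers in the Cdkn1a values was not tested.

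Cdkn1b (ENSMUSG00000003031, chromosome 6, 134920401 to 134925513, plus strand) encodes p27, which is controlled largely through protein degradation. It was expressed at 54.3 to 114 CPM in KP and 79.9 to 111 CPM in KPG1, so the KPG1 libraries lay inside the range of KP. A log2 fold change of 0.35 was fitted (SE 0.21, 95% interval -0.10 to 0.81, limma adjusted p 0.542), and it was -0.06 once the sample number of the labels was a covariate. The sample number largely followed the genotype.

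Cdkn2a (ENSMUSG00000044303, chromosome 4, 89274471 to 89294653, minus strand) and Cdkn2b (ENSMUSG00000073802, chromosome 4, 89306299 to 89311039, minus strand) are neighbours. From 2 starts that lie 12427 bases apart Cdkn2a makes p19Arf, which binds Mdm2, and p16Ink4a, which inhibits Cdk4 and Cdk6. The counts are per gene and pool these transcripts, which share their downstream exons. The 250 bases before each start are shown (RefSeq, GRCm38.p6, minus strand, 5′ to 3′), since the levels of these neighbours are compared across tumours, and capitals mark GC boxes and the letters TTTCCCGC, TTTGGCGC or TTTCGCGC of E2F sites on either strand.
Cdkn2a, upstream start, chr4:89294620-89294869: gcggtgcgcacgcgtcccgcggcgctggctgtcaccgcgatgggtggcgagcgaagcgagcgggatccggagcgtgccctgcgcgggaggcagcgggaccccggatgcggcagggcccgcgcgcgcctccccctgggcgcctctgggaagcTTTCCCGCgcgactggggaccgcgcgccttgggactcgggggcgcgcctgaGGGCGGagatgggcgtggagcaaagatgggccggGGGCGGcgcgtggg
Cdkn2a, downstream start, chr4:89282193-89282442: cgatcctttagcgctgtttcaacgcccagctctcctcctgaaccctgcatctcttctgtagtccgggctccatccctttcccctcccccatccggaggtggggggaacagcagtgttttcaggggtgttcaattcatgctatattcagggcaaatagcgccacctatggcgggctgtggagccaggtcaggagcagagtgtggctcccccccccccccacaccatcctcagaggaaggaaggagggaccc
Cdkn2b, chr4:89311033-89311282: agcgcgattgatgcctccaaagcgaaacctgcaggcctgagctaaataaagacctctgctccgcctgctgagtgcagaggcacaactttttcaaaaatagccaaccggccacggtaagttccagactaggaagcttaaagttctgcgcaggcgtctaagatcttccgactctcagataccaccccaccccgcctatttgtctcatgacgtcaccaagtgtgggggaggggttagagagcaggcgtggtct
The window of the upstream Cdkn2a start held 2 GC boxes and 1 E2F match, and the other windows shown here held 0 of either. Of all windows, 1.53% held an E2F match by these letters. Over the 11 starts of the 7 members in the sequence table, this was the only window with an E2F match, no window held the TATA box letters TATAAA (12.4% of all windows), and 7 held a GC box.

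Cdkn2a was expressed at 75.6, 34.1, 55.2, 42.2 and 18.5 CPM in KP 1 to KP 5 and at 28.8, 26.9, 50.4, 55.2 and 38.6 CPM in KPG1 1 to KPG1 5. The KP libraries held both the highest and the lowest value, and the log2 fold change was -0.09 (SE 0.35, 95% interval -0.85 to 0.68, limma adjusted p 0.944). Cdkn2b was expressed at 29.1, 21.5, 30.7, 20.7 and 16.4 CPM in KP 1 to KP 5 and at 20.2, 17.6, 18.8, 24.9 and 18.2 CPM in KPG1 1 to KPG1 5. It was the steadiest of the 10 genes, with a 1.88-fold span over the libraries, and its log2 fold change was -0.22 (SE 0.19, 95% interval -0.64 to 0.19, limma adjusted p 0.69). Cdkn2c (ENSMUSG00000028551, chromosome 4, 109660876 to 109667189, minus strand) encodes p18. It was expressed at 2.44, 6.85, 5.26, 3.07 and 2.85 CPM in KP 1 to KP 5 and at 9.20, 4.37, 7.14, 5.63 and 5.44 CPM in KPG1 1 to KPG1 5, so 3 KP libraries lay below all KPG1 libraries and 2 KPG1 libraries lay above all KP libraries. Cdkn2c had a log2 fold change of 0.74 (SE 0.31, 95% interval 0.06 to 1.43), with an unadjusted limma p of 0.0366, a limma adjusted p of 0.389 and a two-sided exact permutation p of 0.0714. It was positive under all 18 alternatives that gave a value, from 0.40 to 1.12. Sftpc, the surfactant protein C gene, ranked 2 among 12867 genes searched for likeness to Cdkn2c across the 10 libraries (r 0.93). Its own log2 fold change in KPG1 was 1.22, and its part in the values of Cdkn2c was not tested.

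**Figure D3:**
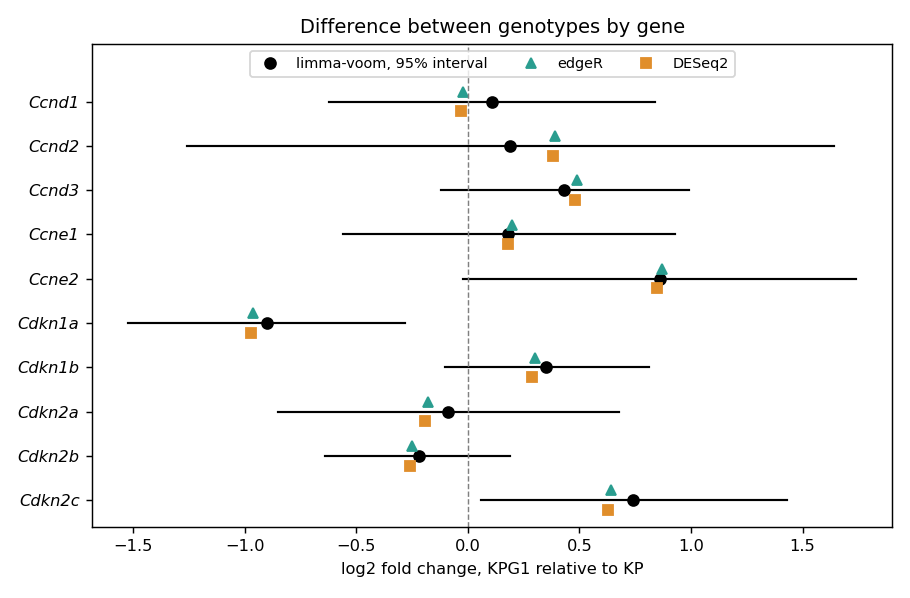
Log2 fold change of each of the 10 genes in KPG1 relative to KP (horizontal axis), with the 95% interval of limma on voom values as a line and the values of edgeR and DESeq2 as triangles and squares. The intervals of Cdkn1a (below 0) and Cdkn2c (above 0) exclude 0 before adjustment, and those of the other 8 genes include it.

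Around the members, genes of the same pathway were read from the same fit. Of 24 G1 kinases, retinoblastoma family genes and regulators, 0 passed the adjusted threshold in limma, edgeR or DESeq2. At an unadjusted limma p under 0.05, 1 was higher and 1 lower. Together these were 8.33% of the list, below the 11.6% of all genes tested. The median log2 fold change of the list was 0.14 against 0.02 over all genes tested. The lower gene was Cdk6, a partner of the D-type cyclins, at -0.78 (SE 0.32, limma adjusted p 0.381), with 2.84 to 4.30 log2 CPM in KP and 2.18 to 3.11 in KPG1. The higher gene was Rbl1, the gene of p107, at 0.49 (SE 0.21, limma adjusted p 0.388). Cdk4, the more abundant partner at 60.7 CPM per kilobase against 0.628 for Cdk6, had a log2 fold change of 0.11 (SE 0.20). The other inhibitors of both classes, Cdkn1c (p57) and Cdkn2d (p19), had 0.84 (SE 0.55) and 0.20 (SE 0.20). Of 10 E2F and DP factors, 9 had a positive log2 fold change with a median of 0.23. Before adjustment, 0 had a limma, edgeR or DESeq2 p under 0.05, where 11.6% of all genes tested had one in limma.

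Downstream of the E2F factors, the S phase and mitosis genes gave different counts. Of 30 S phase genes, 21 had a positive log2 fold change, with a median of 0.16. At an unadjusted limma p under 0.05, 2 (6.67%) were higher, against 5.26% of all genes tested. These were Rrm2, a ribonucleotide reductase subunit, at 1.02 (SE 0.26, limma adjusted p 0.183, DESeq2 adjusted p 0.0241), and Ccna2, the gene of cyclin A2, at 1.22 (SE 0.36, limma adjusted p 0.238). Ccna2 was the 1 gene of its list whose genotypes did not overlap, and Top2a the 1 of the mitosis list, against 2.81% of all genes tested. Of 30 G2 and mitosis genes, all 30 had a positive log2 fold change, with a median of 0.85, and 8 (26.7%) had an unadjusted limma p under 0.05, all higher in KPG1, against 5.26% of all genes tested. The 5 with the smallest p were Ect2 at 0.60 (SE 0.19), Nuf2 at 1.30 (SE 0.50), Top2a at 1.03 (SE 0.40), Nusap1 at 0.98 (SE 0.38) and Bub1 at 1.14 (SE 0.46), which act in cytokinesis, kinetochore attachment, untangling of DNA, spindle formation and the spindle checkpoint. None passed the adjusted threshold in limma, edgeR or DESeq2, with limma adjusted p from 0.268 to 0.371 for these 5. The medians rested in large part on KP 5, in which the 30 mitosis genes summed to 234 CPM against 656 to 795 CPM in the other KP libraries and 671 to 1080 CPM in KPG1. Without KP 5, the median was 0.31 for the mitosis genes, of which 29 were positive and 8 again had an unadjusted limma p under 0.05, and -0.11 for the S phase genes, of which 11 were positive. Once the sample number was a covariate, 28 of the 30 mitosis genes had such a p, with a median of 1.35. The sample numbers ran from 1 to 10 in KPG1 and from 11 to 16 in KP, apart from 6 for KP 5. Sample number and genotype were thus largely confounded, and that fit separates them poorly. The count of 8 became 13 without KP 1, 2 without KPG1 3 or without KPG1 4, and 4 without KPG1 5. The share of all genes with such a p is not given for these refits, and 5.26% belongs to the main fit only. Over the whole table without KP 5, 71 genes were higher and 223 lower by limma adjusted p, against 10 and 18 in the main fit.

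**Figure D4:**
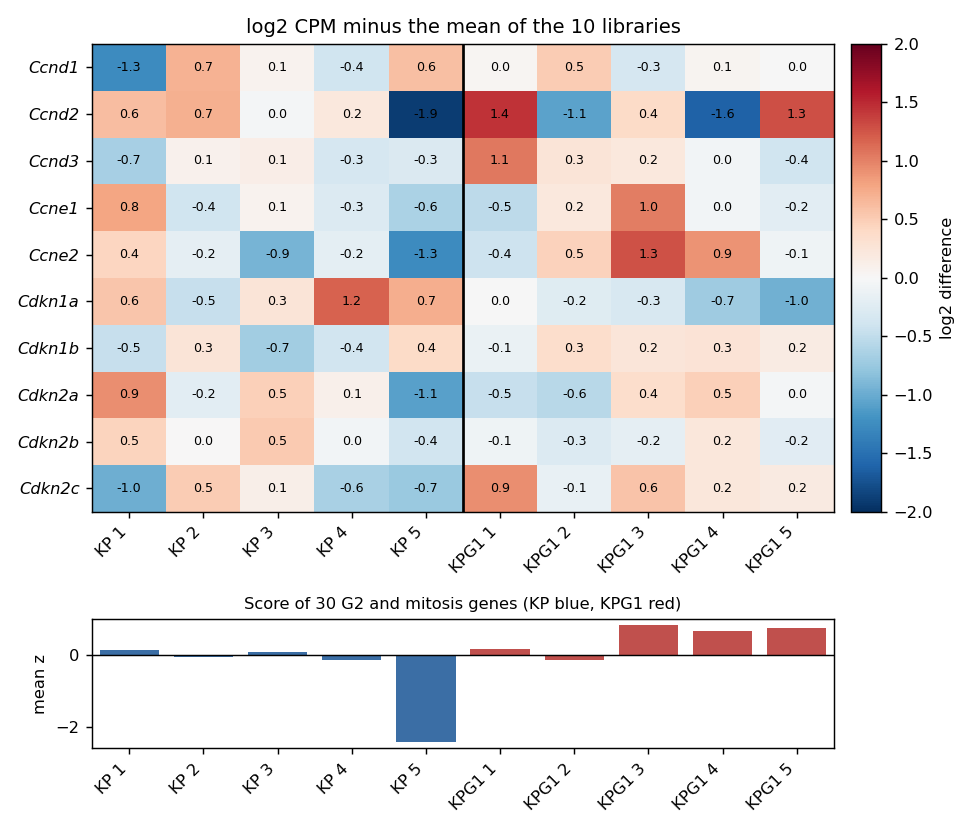
Log2 CPM of each of the 10 genes minus its mean over the 10 libraries (upper panel, colour scale from -2 to 2, value printed in each cell) and the score of 30 G2 and mitosis genes in the same libraries (lower panel, mean z, KP blue, KPG1 red). KP 5 had the lowest score, -2.44, and the lowest Ccnd2, Ccne1, Ccne2, Cdkn2a and Cdkn2b.

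Across the 10 tumours the relation of each gene to this score was computed, together with the pairs Cdkn2a and Cdkn2b, Ccnd1 and Cdkn1a, and Ccne1 and Ccne2, which made 13 relations in 1 family. None passed a Benjamini-Hochberg adjusted permutation p of 0.05, and 4 had an unadjusted p under 0.05. Of these, 2 were members against the score, where 13% of all tested genes outside the mitosis list passed. The closest was the pair of neighbours on chromosome 4, Cdkn2a and Cdkn2b, with Pearson's r 0.80 (permutation p 0.00503, adjusted 0.0654) and Spearman's rho 0.83 (permutation p 0.00438, adjusted 0.0569). The r was 0.64 without the 2 libraries farthest from the median, KP 1 and KP 5, and 0.84 once the mean of each genotype was subtracted. Ccne1 and Ccne2 had r 0.73 (permutation p 0.0171, adjusted 0.0739) and rho 0.73 (permutation p 0.0202, adjusted 0.131), and r 0.54 without KP 1 and KPG1 3. Ccne2 and the mitosis score had r 0.70 (permutation p 0.0138, adjusted 0.0739) and rho 0.60 (permutation p 0.0749, adjusted 0.195), and r 0.30 without KP 5 and KPG1 3, so the relation rested on those libraries, with r 0.56 after subtraction of the genotype means. Cdkn2a and the score had r 0.68 (permutation p 0.0295, adjusted 0.0957) and rho 0.45 (permutation p 0.192, adjusted 0.312). Its r was 0.25 without those 2 libraries and 0.85 after subtraction of the genotype means. Cdkn1a was the gene with the most negative r, -0.57 (permutation p 0.0736, adjusted 0.191), with rho -0.68 (permutation p 0.0345, adjusted 0.15). Its r was -0.67 without KP 5 and KPG1 3 and -0.33 after subtraction of the genotype means.

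The score of the 30 S phase genes was an alternative to the mitosis score, and with the mitosis score none had passed. Against the S phase score, 4 of the 10 genes passed the adjusted threshold by Pearson's r. That adjustment covered the 13 relations of the alternative alone, not those of both scores together. The same 4 had an unadjusted permutation p under 0.05, where 16.4% of all tested genes outside the S phase list did. Cdkn2a had r 0.89 (permutation p 0.00049, adjusted 0.00637) and rho 0.83 (permutation p 0.00465, adjusted 0.0302), with r 0.88 without KP 5 and KPG1 3 and 0.94 after subtraction of the genotype means. Ccne1 had r 0.78 (permutation p 0.00702, adjusted 0.0304) and rho 0.81 (permutation p 0.00757, adjusted 0.0328), with r 0.72 without those 2 libraries. Ccnd1 ran the opposite way, with r -0.75 (permutation p 0.017, adjusted 0.037) and rho -0.77 (permutation p 0.0124, adjusted 0.0403), and r -0.86 without them. Ccne2 had r 0.72 (permutation p 0.0171, adjusted 0.037) and rho 0.66 (permutation p 0.0446, adjusted 0.0966), but r 0.32 without them. After subtraction of the genotype means r was 0.78 for Ccne1 and -0.80 for Ccnd1. The S phase score was 0.83, -0.50, 0.19, 0.32 and -1.66 in KP 1 to KP 5 and -0.38, -0.21, 0.90, 0.35 and 0.16 in KPG1 1 to KPG1 5, and the genotypes overlapped. Each genotype has 5 libraries, too few for an r of its own, and all values of a library share its scaling and cell composition.

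**Figure D5:**
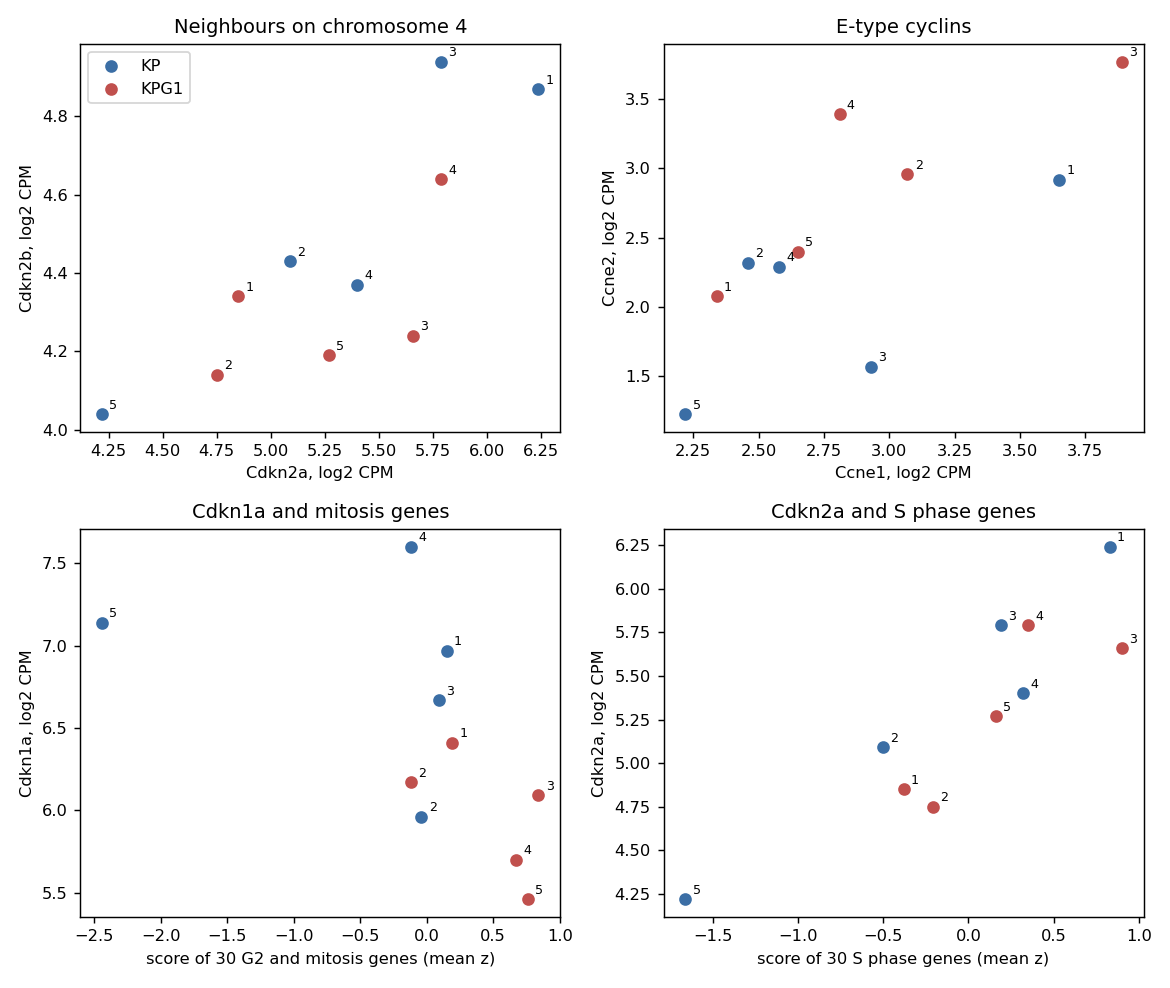
Each point is a library (KP blue, KPG1 red, numbered by replicate), with log2 CPM or the score of a gene list on each axis, for Cdkn2b against Cdkn2a, Ccne2 against Ccne1, Cdkn1a against the mitosis score and Cdkn2a against the S phase score. Cdkn2a followed the S phase score with r 0.89, and KP 5 lay lowest on both axes of that panel.

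The genes whose log2 CPM most resembled that of each member were sought among 12867 genes (mean log2 CPM 1 or more), by Pearson's r over the 10 libraries. Ccnd1 was closest to Cdc42ep3 (r 0.96), Sftpb, the gene of surfactant protein B (0.94), and Tmem38b (0.94). Ccnd2 was closest to Gbp3 (0.90), Serping1 (0.90) and D930048G16Rik (0.88), and Ccnd3 to Tsc2 (0.98), Nbas (0.97) and Pcx (0.93). Ccne1 was closest to Gfpt2 (0.96), Bmyc (0.93) and Spef1 (0.92). Ccne2 was closest to Rbl1 (0.97), itself among the regulators above, then to Haus6 (0.94) and Ypel2 (0.93). Cdkn1a was closest to Rpl34 (0.94), Psmb7 (0.93) and Pgf (0.92), the gene of placental growth factor, and Cdkn1b to Pnrc2 (0.98), Hook1 (0.97) and Srrm1 (0.97). Cdkn2a was closest to Sf3b4 (0.97), Hn1 (0.96) and Mre11a (0.95), Cdkn2b to Anapc11 (0.97), Tmem82 (0.92) and Cdk18 (0.90), and Cdkn2c to Ccdc134, Sftpc and Itpkb (0.93 each). With 10 libraries and so many genes, values of this size describe likeness only.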

How the data were processed

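RNA of the CD45-negative fraction of 5 KP and 5 KPG1 tumours was sequenced from a stranded mRNA kit. The authors trimmed the reads (Cutadapt 1.4.2 per the labels, 1.9.1 per the study's methods), aligned them to mm10 with HISAT2 2.0.3beta and counted them with featureCounts 1.4.4. The strand setting and the annotation are not given in the sources used here. The deposited values are whole-number counts per gene, not normalized. The authors' table of log2 values was not used, and the engineered alleles that initiate the tumours are not reported here.

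In place of the study's filter on TPM, filterByExpr of edgeR 4.0.16 chose the genes, and TMM factors were computed. The genotype was the only term in voom and limma 3.58.1 (R 4.3.3), with Benjamini-Hochberg adjustment over 16216 genes and a threshold of 0.05. Log2 CPM used a prior count of 2. Lengths are union exons of GENCODE M21. Permutation tests used 100000 resamples, or all rearrangements of 5 against 5 libraries. Alternatives were edgeR's quasi-likelihood test, DESeq2 1.42.0, other scalings, filters and weights, a replicate block, the sample number as a covariate and the removal of each library. Libraries of the same genotype differed by 55.7 to 442 chi-square units per degree of freedom, so none was a repeat of another library. These values cannot tell whether libraries shared a tumour or a mouse.

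The members and the gene lists were chosen with earlier results of these data known. Genes named were the 10 members, Slc2a1, up to 5 of each list with the smallest unadjusted p under 0.05 and the 3 genes most like each member; Cdk4, Cdkn1c, Cdkn2d and the cell type markers were named after their values were seen. Counts per library ranged from 32427029 to 49534284. Reads carried no molecular identifiers.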

Additional observations from a re-analysis of the deposited data

Results flagged for a closer look

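Within a genotype of 5 libraries, an extreme library was taken up here where its distance to the nearest other value was above 0.71 of the whole range. Of 46 groups of values searched, 3 met this, where chance gives about 5% of groups. KP 5 held 3.67 log2 CPM of Ccnd2, and the remaining KP libraries held 5.53 to 6.28, so its distance was 0.714 of the range. KP 5 also had a G2 and mitosis score of -2.44, with the remaining KP libraries at -0.117 to 0.152 and a distance of 0.896. KPG1 1 drew 8.05% of its summed Cdkn2a, Cdkn2b and Cdkn2c transcripts from Cdkn2c, with the remaining KPG1 libraries at 3.13% to 4.49% and a distance of 0.723.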

How the results depend on the processing

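The log2 fold changes of Ccnd3, Ccne2, Cdkn1a, Cdkn2b and Cdkn2c kept their sign under every alternative that gave a value, and only Cdkn1a passed an adjusted p of 0.05 under any (DESeq2, 0.0364). Ccne1, Ccne2 and Cdkn2c had no value where a mean CPM of at least 20 was asked. The sign of Ccnd1 turned with edgeR (-0.02), DESeq2 (-0.03) and the sample number as a covariate (-0.18). That of Ccnd2 turned with a weight per library (-0.58), and those of Cdkn1b (-0.06) and Cdkn2a (0.25) with the sample number. With the sample number Ccnd2 moved the other way, to 1.6, with an unadjusted limma p under 0.05 and a limma adjusted p of 0.478. Without single libraries, log2 fold changes ran from -0.19 (without KP 1) to 0.29 for Ccnd1, from -0.29 (without KP 5) to 0.60 for Ccnd2, from -0.06 (without KPG1 3) to 0.41 for Ccne1 and from -0.39 (without KP 5) to 0.14 for Cdkn2a. Median log2 fold changes of all genes stayed between -0.03 and 0.03. The causes of these moves were not tested.

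Genes higher in KPG1 over the whole table numbered 10 in the fit described, 125 with DESeq2, 5 with a mean CPM of at least 20, 51 with a weight per library and 4 with the sample number as a covariate. Those lower numbered 18, and 423, 31, 177 and 4 in the same order, with 29 by edgeR and 31 with no filter. Without single libraries they numbered 3 to 71 and 1 to 223, with both maxima without KP 5. Of the 10 members, DESeq2 called 1 by adjusted p. Cdkn1a had an unadjusted p under 0.05 under all 19 alternatives. Cdkn2c lost it with edgeR, DESeq2, a weight per library and the replicate block, and without KP 1, KP 4, KP 5, KPG1 1, KPG1 3 or KPG1 4. The members with such a p numbered 1 with a mean CPM of at least 20, and 1 (without KP 4, KPG1 3 or KPG1 4) to 4 (without KPG1 5) without single libraries. Among the cell cycle lists DESeq2 called 1 gene, Rrm2. Those higher at an unadjusted p under 0.05, 11 in all, numbered 5 with a mean CPM of at least 20, 34 with the sample number as a covariate, and 4 (without KPG1 3 or KPG1 4) to 23 (without KP 1) without single libraries. Those lower numbered 0 with a mean CPM of at least 20 and 0 to 1 without single libraries. The share of all genes with an unadjusted p under 0.05 is not given for the alternatives, so these counts have no background beside them.

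Relations past an adjusted permutation p of 0.05 numbered 6 in the family with the S phase score (where r of Ccnd3 was -0.17). Of these, 4 were members with that score. The other 2 were the pairs Cdkn2a with Cdkn2b and Ccne1 with Ccne2. The r and unadjusted p of these pairs do not involve the score and were unchanged, so only the adjustment moved. Such relations numbered 4 with no TMM factors and 0 to 3 without single libraries, with 3 without KP 3, 1 without KPG1 3 and 2 without KPG1 5. Without single libraries r with the mitosis score ran from -0.02 to 0.27 for Ccnd3, from -0.28 to 0.43 for Cdkn1b and from -0.19 to 0.46 for Cdkn2b. Without a length correction the share of Ccnd1 was 78.3% in KP and 75.6% in KPG1, and that of Cdkn2a was 59.4% in KPG1.

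Deviations of same-numbered libraries of both genotypes correlated at -0.16 to 0.08, and 1 of 10 libraries was closest to its own number. These values showed no sign of a pairing by replicate number, but they cannot exclude one. With a replicate block, 4 genes were higher and 1 lower, 1 member (Cdkn1a) and 6 list genes (higher), 3 of them mitosis genes, had an unadjusted p under 0.05, and no member passed the adjusted threshold.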
